A study of Mus musculus with 6 samples.

Results

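A set of 10 genes that respond to glucocorticoid hormones were examined in primary bone marrow stromal cells of the mouse, which grow attached to the dish and give rise to osteoblasts or adipocytes. The set was fixed by name and holds the receptor gene Nr3c1, the hormone-activating enzyme gene Hsd11b1, and 8 genes that the hormone-bound receptor is known to induce, namely Fkbp5, Tsc22d3, Dusp1, Sgk1, Per1, Klf9, Klf15 and Zbtb16. All 10 were present among the 12830 genes of the deposited table, and all 10 passed the filter on low counts. The 3 cKO libraries came from mice that carried a floxed Rras2 gene, Rras2f/f, together with a Prx1 construct. The 3 FF libraries came from Rras2f/f mice without it. Both groups therefore shared the floxed allele, the donor age of 8 weeks and the culture under osteogenic induction for 2 days. Prx1 is active in the mesenchyme of the developing limb, and its promoter serves to delete floxed genes there, so blood-derived cells of the same cultures are not its target.

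Glucocorticoids such as corticosterone cross the cell membrane and bind the glucocorticoid receptor, which waits in the cytoplasm in a complex with Hsp90 and its co-chaperones. The bound receptor enters the nucleus, binds DNA at response elements and raises or lowers the transcription of nearby genes. In bone and marrow these hormones direct stromal cells toward osteoblasts or adipocytes in culture, and in excess they cause bone loss in the animal. Osteogenic media often contain dexamethasone, a synthetic glucocorticoid, but the composition of the induction medium is not given in the sources used here. There was no group without induction, so the data compare the genotypes and do not measure a response to the hormone.

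These promoters are shown because Klf15 and Fkbp5 were the members called between the genotypes, Per1 was the other member whose groups did not overlap, and Sgk1 held the full receptor element. Each line gives the 250 bases before a transcript start, from RefSeq on GRCm38.p6, which is mm10, read 5′ to 3′ along the gene. Capitals mark the glucocorticoid response element and its parts, searched as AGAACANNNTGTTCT, as the core ACANNNTGT and as the single arm AGAACA, and the E-box CACGTG, which clock proteins bind. The full element contains the core and both arms. In the Sgk1 window an E-box also overlaps an arm that reads on the opposite strand.
Klf15: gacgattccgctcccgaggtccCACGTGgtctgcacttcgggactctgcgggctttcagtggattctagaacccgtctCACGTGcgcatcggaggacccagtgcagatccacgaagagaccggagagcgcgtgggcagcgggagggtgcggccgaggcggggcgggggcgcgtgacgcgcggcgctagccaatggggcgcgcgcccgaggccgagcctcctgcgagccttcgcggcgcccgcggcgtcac
Fkbp5: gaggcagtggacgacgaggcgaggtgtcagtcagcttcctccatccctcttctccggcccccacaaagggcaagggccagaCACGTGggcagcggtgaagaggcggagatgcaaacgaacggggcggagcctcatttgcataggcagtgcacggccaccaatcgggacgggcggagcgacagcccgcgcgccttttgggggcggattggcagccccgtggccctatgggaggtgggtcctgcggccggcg
Per1: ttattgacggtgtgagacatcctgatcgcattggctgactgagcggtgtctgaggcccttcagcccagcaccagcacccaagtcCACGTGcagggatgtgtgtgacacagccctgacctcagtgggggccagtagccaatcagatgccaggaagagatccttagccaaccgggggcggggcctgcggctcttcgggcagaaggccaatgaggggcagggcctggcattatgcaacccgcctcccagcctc
Sgk1: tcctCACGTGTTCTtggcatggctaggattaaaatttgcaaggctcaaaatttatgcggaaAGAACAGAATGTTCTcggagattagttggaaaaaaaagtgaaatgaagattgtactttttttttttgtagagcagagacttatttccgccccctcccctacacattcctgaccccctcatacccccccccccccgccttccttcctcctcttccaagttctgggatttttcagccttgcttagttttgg

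The Klf15 window is chr6:90462326-90462575 on the plus strand, and the Fkbp5 window is chr17:28486150-28486399 on the minus strand. The Per1 window is chr11:69098699-69098948 and the Sgk1 window is chr10:21993640-21993889, both on the plus strand. The Fkbp5, Per1 and Sgk1 windows lie before internal starts, inside the annotated genes, and the Klf15 window ends where its gene begins. The Per1 window is 1 of 2 listed for that gene and the Sgk1 window 1 of 6. The Sgk1 window held the palindrome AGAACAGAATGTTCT at positions 21993701 to 21993715 of chromosome 10, starting 189 bases before the start. Of 32851 listed mouse promoters, 3 held the full element in their 250 bases, a share of 0.00913%, and the Sgk1 window was the single one among 16 windows of 8 members. The core ACANNNTGT was in 2 of these 16 windows, both of Sgk1, against 5.84% of all promoters. The arm AGAACA was in 4 of the 16 windows, 3 of Sgk1 and 1 of Tsc22d3, against 16.1% of all promoters. The E-box was in 5 of the 16 windows, from Fkbp5, Per1, Klf15, Sgk1 and Dusp1, against 6.02% of all promoters, and Klf15 held 2 copies. The cAMP response element TGACGTCA was in the Dusp1 window, against 1.55% of all promoters. The shorter cAMP sequence TGACG, which lies within TGACGTCA, was in 7 of the 16 windows, from 6 members, against 17.8% of all promoters. The GC box GGGCGG was in 9 of the 16, from 6 members, against 32.7%, and the forkhead sequence TGTTTAC was in 2 of the 16, from Klf9 and Hsd11b1, against 3.17%. These 8 motifs were searched on both strands, and which of them to show in capitals was chosen after the matches were seen. All 250 bases of the Hsd11b1 window lay in exons of annotated transcripts of that gene, as did parts of the Dusp1 window and of Tsc22d3 windows. Several windows belong to 1 gene, so the 16 are not independent. These are matches of letters and do not show that a protein was bound. The search took exact matches only, so elements that differ from the searched letters were not counted. A window without a match also says nothing of elements farther away.

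Library totals over the 12830 listed genes lay between 31934714 and 37561452 counts, which is not the full sequencing depth. Whether each library had its own donor animal is not stated in the labels, so the p-values reflect the spread among these samples, part of which may be technical. Levels in each library are given as CPM, which puts counts from libraries of unequal depth on 1 scale. Rras2 had 26.7, 29.0 and 26.8 CPM in cKO, against 49.7, 50.1 and 44.7 CPM in FF. The transcript was thus lower in every cKO library and still present, at 0.570 of its FF level (edgeR quasi-likelihood test, adjusted p = 1.08e-05). Markers of other cells were in the cultures and some moved with genotype. Over all 12830 genes, 1441 had every cKO library below every FF library, and 22.5% had groups that did not overlap, counting both directions. At an edgeR adjusted p below 0.05, 2.10% of all genes were called higher and 2.74% lower. All 7 osteoblast markers were lower in every cKO library, and 3 of the 7 passed the test. Their summed level was 9031 to 11022 CPM in cKO, against 14057 to 15010 CPM in FF. The 6 marrow stroma markers, 4 of them called higher, summed to 5163 to 5482 CPM in cKO, against 3890 to 4043 CPM in FF. Cxcl12, which was called, made up most of this sum, at a mean of 4838 CPM in cKO and 3483 CPM in FF. Pdgfra and Pdgfrb had overlapping groups and log2 fold changes of -0.037 and -0.047. The 6 macrophage markers summed to 20810 to 21503 CPM in cKO, against 19067 to 20428 CPM in FF. Most of that sum was Lyz2, which was not called, and of the 6 only Tyrobp was called higher while Ptprc, Adgre1 and Csf1r had overlapping groups. Of 6 plasma cell markers 5 were measured and 4 called higher, and the 5 summed to 276 to 298 CPM in cKO, against 204 to 213 CPM in FF. The largest of the 5 was Sdc1, at a mean of 125 CPM in cKO and 122 CPM in FF, which was not called (edgeR adjusted p = 0.779). The 4 called genes, Igkc, Jchain, Igha and Ighg1, were 1.71-fold to 2.62-fold higher. The part of these cells in the values below was not tested, and in bulk RNA fewer cells of a type cannot be told apart from less RNA per cell.

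Of the 10 members, Klf15 rose in cKO and Fkbp5 fell. Over all tested genes 4.84% were called by the same rule, an edgeR adjusted p below 0.05, of which 2.10% were higher and 2.74% lower. The median log2 fold change of the members was -0.014, and that of all tested genes was 0.00058. For 6 of the 10 members, which is 60.0%, the log2 fold change was smaller than 0.1 in size. For all genes the share was 56.8%, so by that cut-off the members lay near the background. The median size of the log2 fold change was 0.034 for the members and 0.083 for all genes. DESeq2 called the same 2 members, and 6.61% of all genes. The groups did not overlap for 3 members, Klf15, Fkbp5 and Per1, where 22.5% of all genes had groups that did not overlap.

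The members covered a wide range of transcript levels, compared here as FPKM, the authors' deposited count per gene length and library size. Tsc22d3 was highest, at 47.1 to 54.6 FPKM over the 6 libraries, above 90.2% of all genes. Nr3c1 came next, at 22.6 to 24.8 FPKM, and then Sgk1, at 12.1 to 14.2 FPKM. Fkbp5, at 8.34 to 10.7 FPKM, and Dusp1, at 7.38 to 8.94 FPKM, overlapped in their ranges. Klf9 followed at 5.001 to 5.82 FPKM and Per1 at 3.17 to 4.03 FPKM, each apart from its neighbours. Klf15, at 1.09 to 2.49 FPKM, and Hsd11b1, at 0.653 to 1.64 FPKM, overlapped, and Zbtb16 was lowest, at 0.393 to 0.645 FPKM. The 3 lowest genes therefore rested on few reads, with 101 to 230 counts per library for Klf15, 42 to 96 for Hsd11b1 and 69 to 122 for Zbtb16.

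**Figure D1:**
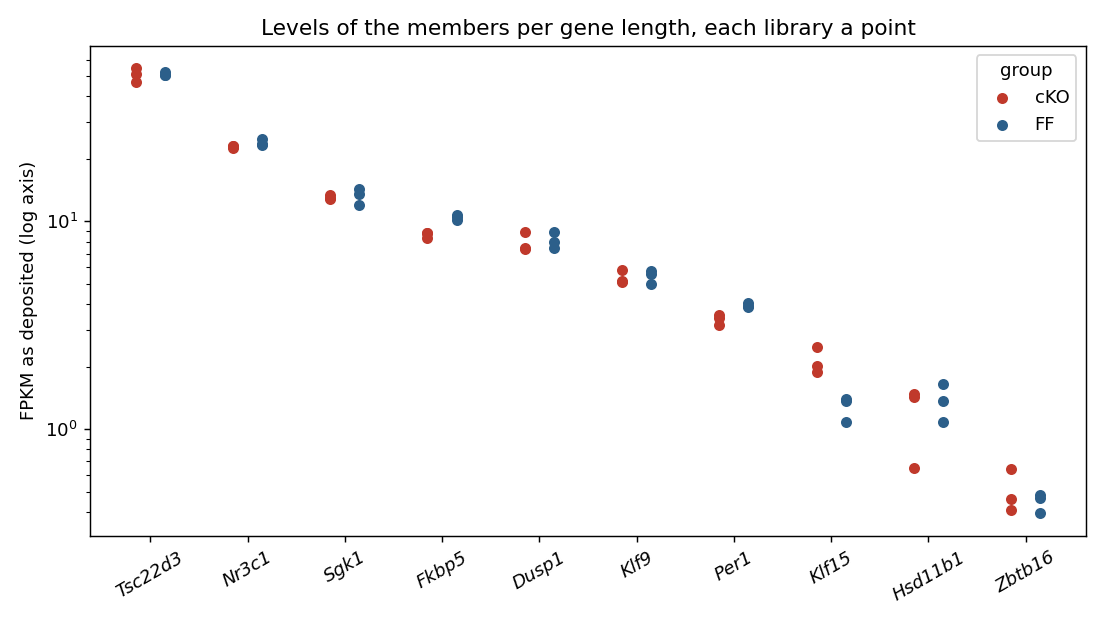
Level of each member in FPKM as deposited (log axis), with 1 point per library, cKO in red to the left of FF in blue. Tsc22d3 is highest at 47.1 to 54.6 FPKM and Zbtb16 lowest at 0.393 to 0.645 FPKM, and the order follows the median over the 6 libraries.

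Nr3c1 encodes the glucocorticoid receptor itself and lies on the minus strand of chromosome 18 in mm10, between 39410545 and 39519421. It had 152, 158 and 159 CPM in cKO, against 159, 163 and 154 CPM in FF. The groups overlapped and no library stood apart. Its log2 fold change was -0.021, with a 95% interval of -0.113 to 0.071 (edgeR adjusted p = 0.858), so a change beyond a factor of 0.925 or 1.05 lay outside the interval. Within groups the receptor varied little, with a coefficient of variation of 2.48% in cKO and 2.76% in FF. Counting alone would give 1.34% at the mean count of this gene. The medians over all genes were 6.26% and 5.20%, but these include genes with far fewer counts, and genes of like level were not compared.

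Hsd11b1 encodes the enzyme that turns inert 11-keto steroids back into active glucocorticoid inside the cell. It had 2.39, 2.56 and 1.16 CPM in cKO, against 2.23, 2.53 and 1.53 CPM in FF. Replicate 3 was the lowest library of each group. The coefficient of variation was 37.7% in cKO and 24.6% in FF, where counting alone would give 11.7% at the mean count of this gene. On the log2 scale the change was -0.047 with a 95% interval of -0.700 to 0.607 (edgeR adjusted p = 0.959), which leaves room for a change of 1.5-fold either way.

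Fkbp5 encodes a co-chaperone that binds Hsp90 in the receptor complex and lowers the receptor's affinity for hormone. Its own induction by the receptor forms a short negative feedback loop. The gene lies on the minus strand of chromosome 17 in mm10, between 28399094 and 28517527. It had 34.0, 34.2 and 32.9 CPM in cKO, against 41.3, 40.9 and 39.2 CPM in FF. Every cKO library was below every FF library, and both groups were tight, with an SD of 0.716 CPM around a mean of 33.7 CPM in cKO and an SD of 1.10 CPM around a mean of 40.5 CPM in FF (n = 3 each). This is a log2 fold change of -0.26 (standard error 0.0605), with a 95% interval of -0.39 to -0.13, or 1.20-fold lower (edgeR adjusted p = 0.0212). The authors' deposited table gave -0.27 for Fkbp5, with an adjusted p of 0.00702. With cKO replicate 2 or 3 left out the edgeR call ended (adjusted p = 0.0615 and 0.0781), as it did with FF replicate 1 or 2 left out (0.0913 and 0.101), while the log2 fold change stayed between -0.29 and -0.25. In the annotation Fkbp5 overlaps the antisense gene AC154912.1.

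Tsc22d3 encodes the glucocorticoid-induced leucine zipper protein, which restrains inflammatory transcription factors and is among the most widely used readouts of receptor activity. It had 102, 110 and 97.2 CPM in cKO, against 103, 102 and 101 CPM in FF. The 3 FF libraries fell between the highest and the lowest cKO library. A log2 fold change of 0.020 was estimated, with a 95% interval of -0.090 to 0.13 (edgeR adjusted p = 0.892). That interval does not overlap the interval of Fkbp5 given above, although a difference between the genes was not tested.

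Dusp1 and Sgk1 are rapid targets. Dusp1 encodes a phosphatase that switches off MAP kinases, and Sgk1 encodes a kinase related to Akt that acts on ion transport and cell survival. Dusp1 had 16.2, 16.2 and 19.8 CPM in cKO, against 17.6, 19.2 and 16.0 CPM in FF. Sgk1 had 35.9, 34.9 and 35.4 CPM in cKO, against 38.4, 32.2 and 36.4 CPM in FF. Groups overlapped for both genes, and the cKO libraries of Sgk1 all lay inside the FF range. Dusp1 had a log2 fold change of -0.018, with a 95% interval of -0.24 to 0.199 (edgeR adjusted p = 0.954). For Sgk1, whose window above held the full receptor element, it was -0.010, with a 95% interval of -0.16 to 0.14 (edgeR adjusted p = 0.963). In the annotation Dusp1 overlaps the protein-coding gene Ergic1 on the opposite strand. The kit keeps strand but the strand setting of the counting is not given in the sources used here, so reads of such a pair may be mixed. The same holds for Hsd11b1 with Lamb3.

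**Figure D2:**
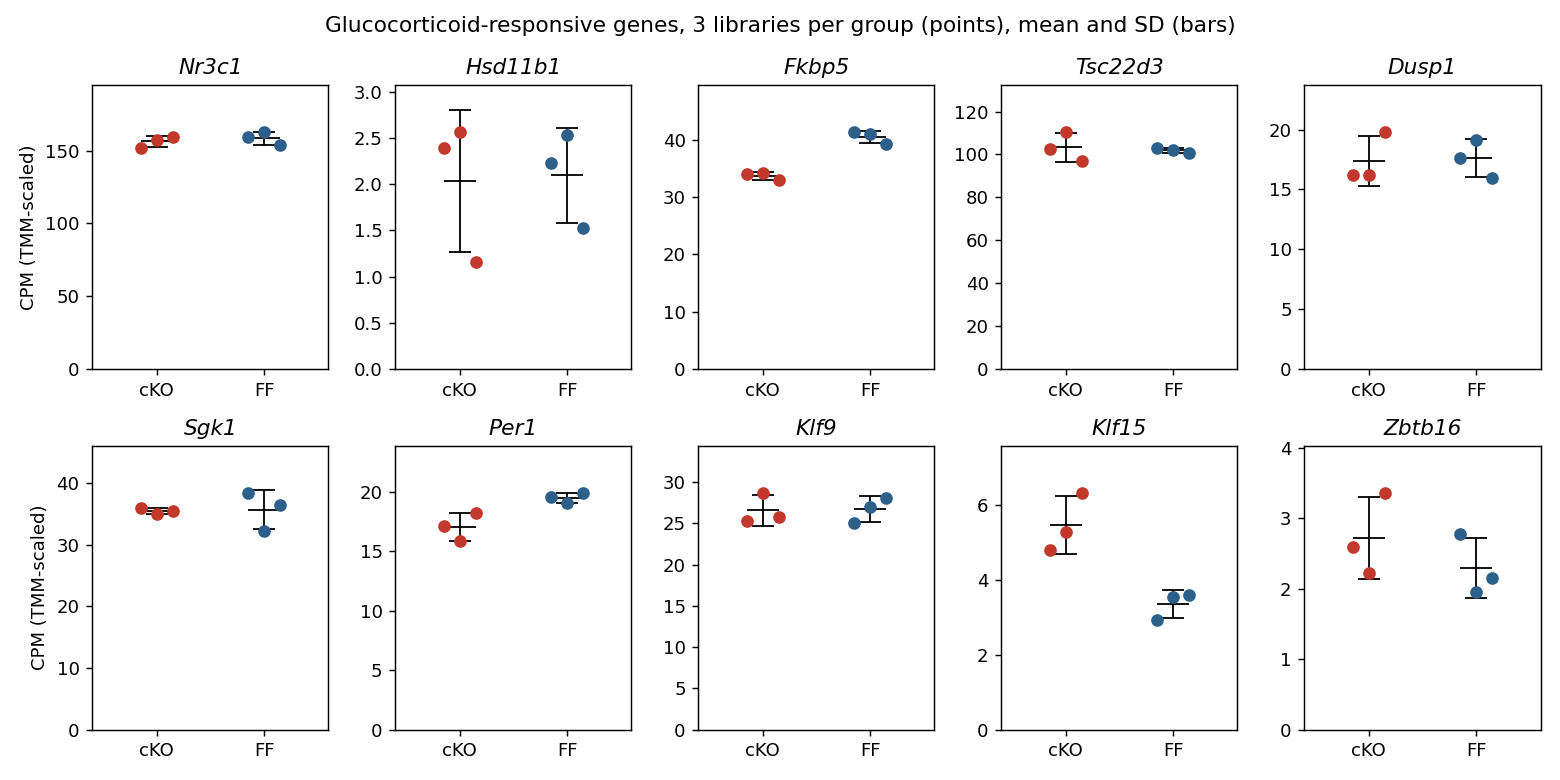
CPM of each member (TMM-scaled), with points for the 3 cKO libraries (red, left) and the 3 FF libraries (blue, right) and bars for the mean and SD. Klf15 is above the FF points in all cKO libraries, Fkbp5 and Per1 are below them, and the other members overlap.

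Per1 encodes a repressor of the circadian clock that glucocorticoids also induce directly, which lets the hormone set the clock of peripheral tissues. It had 17.1, 15.8 and 18.2 CPM in cKO, against 19.6, 19.1 and 19.9 CPM in FF. All cKO libraries were below all FF libraries, with the closest pair at 18.2 CPM in cKO and 19.1 CPM in FF. This difference, -0.20 on the log2 scale (standard error 0.0829), missed the threshold (unadjusted p = 0.0333, edgeR adjusted p = 0.230). Its adjusted p was 0.305 in the authors' deposited table.

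Klf9 and Klf15 encode zinc finger factors of the Krüppel-like family. Klf9 carries hormone signals to the clock and to cell growth, and Klf15 acts on amino acid and lipid metabolism and promotes adipocyte formation. Klf9 had 25.3, 28.7 and 25.7 CPM in cKO, against 25.0, 27.0 and 28.1 CPM in FF, with overlapping groups and a log2 fold change of -0.0087 (95% interval -0.17 to 0.15, edgeR adjusted p = 0.971). Klf15 had 4.82, 5.30 and 6.33 CPM in cKO, against 2.92, 3.54 and 3.62 CPM in FF. The lowest cKO library was above the highest FF library.

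Klf15, ENSMUSG00000030087, lies on the plus strand of chromosome 6 in mm10, between 90462576 and 90475238. Its mean was 5.48 ± 0.775 CPM in cKO and 3.36 ± 0.379 CPM in FF (SD, n = 3 each). The rise was 0.71 on the log2 scale (standard error 0.172), with a 95% interval of 0.34 to 1.07, or 1.63-fold (edgeR adjusted p = 0.0286). In the authors' deposited table Klf15 had an adjusted p of 0.00856. The call was kept without cKO replicate 1 (edgeR adjusted p = 0.0138) and ended without any other library, with adjusted p from 0.0604 to 0.154, and with limma-voom (0.0604). With each library left out in turn its log2 fold change was between 0.59 and 0.79.

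Of the adipocyte markers, which are expressed in cells that Klf15 helps to form, 6 of 8 were measured, without Cidec and Cfd. Of the 6, 1, Adipoq, was called higher, where 2.10% of all genes were. The 6 summed to 3054 to 3141 CPM in cKO, against 2784 to 2915 CPM in FF. Most of this sum was Lpl, which was not called, at a mean of 2718 CPM in cKO and 2500 CPM in FF (edgeR adjusted p = 0.191). Pparg, Cebpa, Fabp4 and Plin1 had overlapping groups and log2 fold changes of 0.021, 0.053, 0.092 and 0.22. The part of adipocytes in the Klf15 value was not tested. Zbtb16 encodes a zinc finger repressor that is strongly induced by dexamethasone in osteogenic cultures of human cells. It had 2.59, 2.22 and 3.36 CPM in cKO, against 2.78, 1.95 and 2.15 CPM in FF. The groups overlapped, and the log2 fold change of 0.25 had a 95% interval of -0.25 to 0.75 (edgeR adjusted p = 0.648). Counting error alone came to 10.7% per library at this level.

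**Figure D3:**
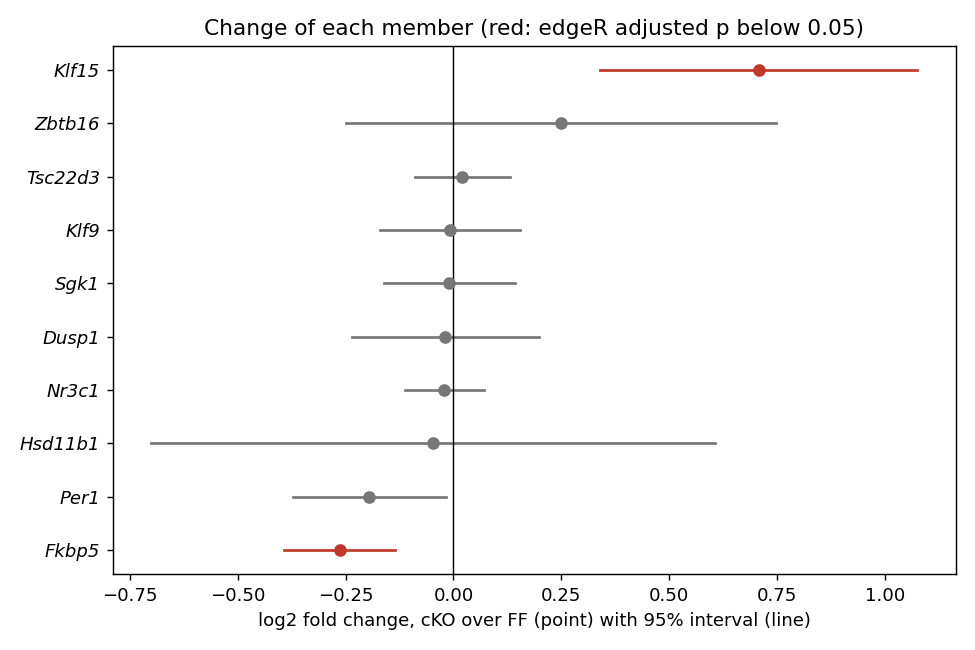
The log2 fold change of each member, cKO over FF (points), with its 95% interval (lines), red where the edgeR adjusted p was below 0.05. Klf15 at 0.71 and Fkbp5 at -0.26 are the called members, and the widest interval, -0.700 to 0.607, belongs to Hsd11b1.

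**Figure D4:**
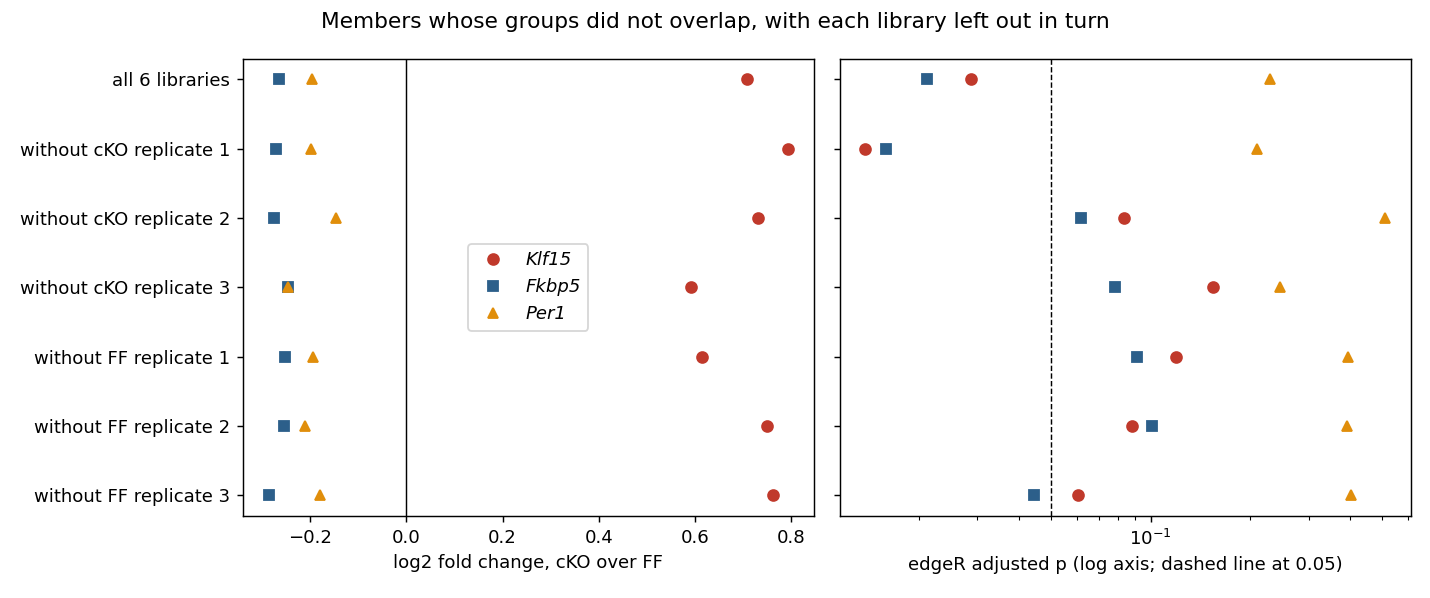
Klf15, Fkbp5 and Per1 with all 6 libraries and with each library left out, as log2 fold change, cKO over FF (left), and as edgeR adjusted p on a log axis (right; dashed line at 0.05). The fold changes keep their direction, from 0.59 to 0.79 for Klf15, -0.29 to -0.25 for Fkbp5 and -0.24 to -0.15 for Per1, while most adjusted p-values lie above 0.05.

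The machinery that holds and assists the receptor showed no call. Of 14 genes for chaperones, co-regulators and the related mineralocorticoid receptor, 0 passed in either direction, where 4.84% of all genes were called. The median log2 fold change of the 14 was -0.017. The chaperone genes Hspa8 and Hsp90ab1, the most abundant of the list, had log2 fold changes of -0.0035 and 0.0085 (edgeR adjusted p = 0.981 and 0.956). At an unadjusted p below 0.05 the same list had 0 genes, where the share over all genes was 17.3%, and DESeq2 called 0. Of 5 genes for steroid activation, inactivation and export, 4 were measured, without Hsd11b2, and 0 passed, where 4.84% of all genes were called. The median of the 4 was 0.088, with Srd5a1 at 0.17 and Abcb1a at 0.40, both named after their values were seen. Abcb1a was low, at means of 2.15 CPM in cKO and 1.63 CPM in FF. H6pd, which supplies the cofactor of Hsd11b1, and Abcb1b, an efflux pump that exports steroids, had log2 fold changes of -0.033 and 0.0039 (edgeR adjusted p = 0.790 and 0.983). In that list 0 had an unadjusted p below 0.05, and DESeq2 called 0.

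Among 24 further genes known to be induced by glucocorticoids, 23 were measured, 2 rose and 0 fell, where 4.84% of all genes were called. This list, like the others, was chosen with earlier results of these data known. Positive log2 fold changes were found for 19 of the 23, against 50.2% of all tested genes, with a median of 0.040. In the other lists, 4 of 14 receptor machinery genes, 3 of 4 steroid genes and 5 of 10 glucocorticoid-repressed genes were positive. So were 9 of 16 clock genes, 8 of 16 immediate early genes and 6 of 15 paralogs. Of the members, Tsc22d3, Klf15 and Zbtb16 were positive and the others negative. An unadjusted p below 0.05 was found for 8 of the 23, against 17.3% of all genes. Of these 8, Pdk4 and Map3k6 were lower in cKO, at -0.15 and -0.34 on the log2 scale. DESeq2 called 3 of the list, and 6.61% of all genes. Errfi1, a feedback inhibitor of the EGF receptor, had 61.7, 81.8 and 82.3 CPM in cKO, against 44.0, 48.1 and 42.5 CPM in FF. All cKO libraries were above FF, with a change of 0.75 on the log2 scale (standard error 0.117, edgeR adjusted p = 0.0148). This call was lost when cKO replicate 2 was left out (adjusted p = 0.0539), and also for FF replicate 1 or 3 (0.107 and 0.0709). Mt1, a metal-binding metallothionein, had 24.9, 29.8 and 32.3 CPM in cKO, against 20.1, 23.0 and 22.6 CPM in FF, again with no overlap. Its log2 fold change was 0.41 (edgeR adjusted p = 0.0255), and the call was kept only without cKO replicate 1 among the 6 fits that left out a library, and was lost with limma-voom (adjusted p = 0.0864).

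Among 16 genes that glucocorticoids are known to repress, 10 were measured, 1 fell and 0 rose, where 4.84% of all genes were called. The median log2 fold change of the 10 was -0.039. There 2 had an unadjusted p below 0.05, where the share over all genes was 17.3%. Ptgs2, the inducible cyclooxygenase, had 2.82, 2.94 and 2.34 CPM in cKO, against 9.23, 7.68 and 6.45 CPM in FF, and was 2.88-fold lower (edgeR adjusted p = 0.000134). Its cKO libraries were all below 3 CPM, far from the FF range.

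Per1, Dusp1 and Sgk1 also answer to the clock and to serum or stress, so those gene groups were read beside them. Of 16 circadian clock genes 1 rose and 0 fell, where 4.84% of all genes were called. Their median log2 fold change was 0.0090, and 2 of the 16 had an unadjusted p below 0.05. Bhlhe41, a clock repressor, had 49.2, 46.3 and 49.5 CPM in cKO, against 40.6, 39.2 and 41.7 CPM in FF, which is 0.26 higher on the log2 scale (edgeR adjusted p = 0.0241). Leaving out cKO replicate 3 ended its call (adjusted p = 0.0840), and so did FF replicate 1 or 2 (0.0860 and 0.119). Per2 and Per3, the closest relatives of Per1, had log2 fold changes of 0.017 and 0.11 (edgeR adjusted p = 0.959 and 0.459) and were named after their values were seen. Of 16 immediate early genes, which serum and stress switch on within minutes, 1 fell and 0 rose, against the same 4.84% of all genes. The median of these 16 was -0.0077. An unadjusted p below 0.05 was found for 5 of them, Fos, Junb and Klf4 lower in cKO and Egr2 and Klf6 higher. Over all genes the share with an unadjusted p below 0.05 was 17.3%. Klf4, a Krüppel-like factor outside the member set, had 29.6, 27.3 and 25.0 CPM in cKO, against 42.0, 42.7 and 40.1 CPM in FF (log2 fold change -0.61, edgeR adjusted p = 0.000193).

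Of 18 paralogs of the members 15 were measured, and 0 rose and 0 fell, where 4.84% of all genes were called. The median log2 fold change of the 15 was -0.043. Tsc22d1, a relative of Tsc22d3, and Fkbp4, the co-chaperone that opposes Fkbp5 in the receptor complex, had log2 fold changes of -0.050 and 0.041 (edgeR adjusted p = 0.617 and 0.730). Among the paralogs 2 had an unadjusted p below 0.05, where the share over all genes was 17.3%, and DESeq2 called 0. Fkbp4 had 115, 109 and 107 CPM in cKO, against 110, 109 and 103 CPM in FF, with groups that overlapped where those of Fkbp5 did not.

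**Figure D5:**
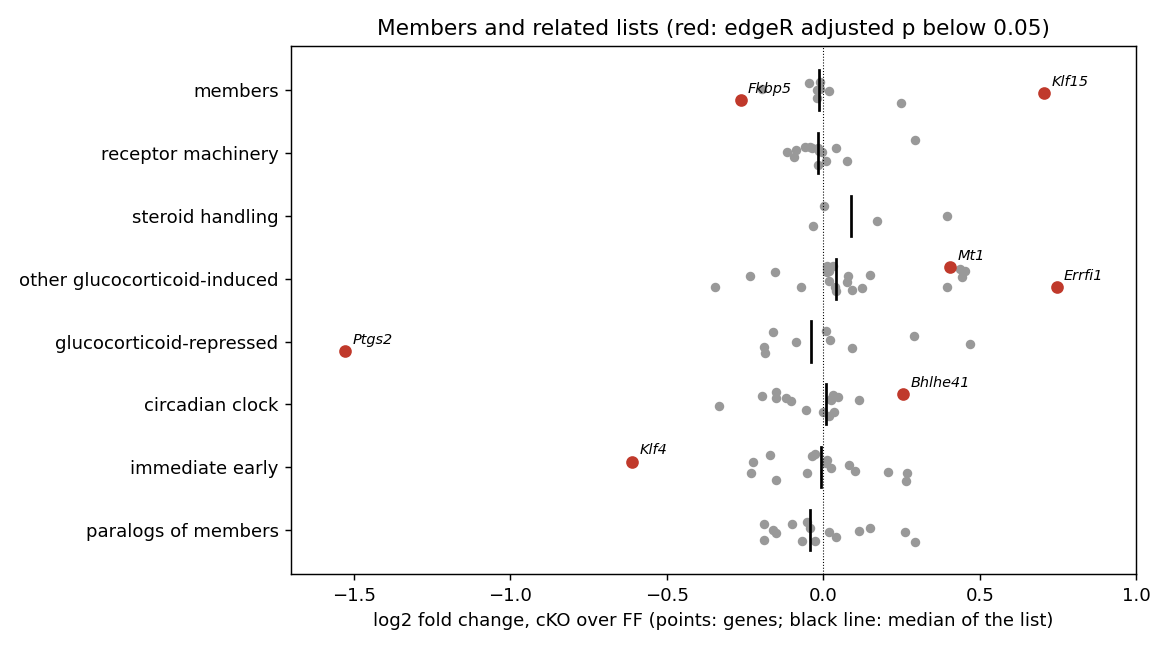
The log2 fold change, cKO over FF, of the 10 members and of the related lists, with 1 point per gene, red and named where the edgeR adjusted p was below 0.05, and a black line at each list's median. The medians lie between -0.043 and 0.088, and the named genes are Fkbp5, Klf15, Errfi1, Mt1, Ptgs2, Bhlhe41 and Klf4.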

How the data were processed

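RNA sequencing of 6 libraries, 3 cKO and 3 FF, was read from 1 deposited table. Per the labels' protocols a stranded mRNA kit was used on total RNA, and per the submitters' processing notes the build was mm10. For the aligner, the counting tool and its strand setting nothing is stated in these sources. The authors deposited raw counts per gene and library, FPKM values, the mean over libraries of log2(FPKM + 1), and per gene a log2 fold change with its raw and adjusted p-values. The FPKM values were used to compare levels between genes and the authors' fold changes only where named.

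Counts were scaled and tested across all 12830 genes with edgeR 4.0.16 in R 4.3.3 (TMM, filterByExpr, robust quasi-likelihood F test, no covariate), with Benjamini-Hochberg adjustment and a threshold of 0.05. The filter removed 0 genes. CPM values use the TMM factors. The standard error is the log2 fold change divided by the square root of F, and the 95% interval uses the t quantile at the test's degrees of freedom. Alternatives were other scalings, filters, DESeq2 1.42.0, limma-voom (limma 3.58.1), the replicate number as a block and each library left out. Every pair of libraries differed by more than sampling noise.

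The members and lists were chosen with earlier results of these data known. Genes named are the members, Rras2, and from each list up to 4 called genes in order of p, or the 2 genes of largest mean if the list had no call. One result for a single gene is not reported here. Promoters came from RefSeq for 8 of the members and gene positions from GENCODE M21.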

Additional observations from a re-analysis of the deposited data

How the results depend on the processing

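The filter removed 0 genes, so the fit without it was the same fit and is not counted. Of 152 gene results under the remaining settings other than leaving out a library, 150 kept their direction and their side of the threshold and 0 changed direction. The other 2, Klf15 and Mt1 with limma-voom, lost their calls. With limma-voom 177 genes were called higher, 0 members were called higher, and 1 further glucocorticoid-induced gene was called higher. In the glucocorticoid-repressed list 2 genes were called lower with library totals alone and 2 with DESeq2, the second being Mmp13, and with the replicate block 1 gene, Mmp9, was called higher. DESeq2 called 3 further glucocorticoid-induced genes higher, the third being Glul. Over all genes, libraries of the same replicate number had deviations from their group means that correlated at -0.036, 0.091 and -0.099. Pairs of cKO and FF libraries with unlike numbers had correlations from -0.188 to 0.207. With 3 libraries per group these values do not settle whether the numbers pair the libraries. The replicate block called 282 genes higher and 387 lower and changed no other call of a list or member. A minimum of 100 counts in 3 libraries removed Zbtb16 and Hsd11b1.

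Leaving out 1 library at a time left 107 to 535 genes called higher and 161 to 631 lower, with the highest counts without cKO replicate 1. Members called ranged from 0 to 1 higher and from 0 to 1 lower. Called genes ranged from 0 to 3 higher and 0 to 1 lower in the further glucocorticoid-induced list, 1 to 2 lower in the glucocorticoid-repressed list, 0 to 1 higher and 0 to 1 lower in the clock list, 1 to 2 lower in the immediate early list and 0 to 1 lower in the receptor machinery list. Direction changed for uncalled genes near zero, with log2 fold changes from -0.030 to 0.063 for Tsc22d3, -0.067 to 0.029 for Klf9, -0.076 to 0.044 for Sgk1, -0.12 to 0.050 for Dusp1, -0.25 to 0.24 for Hsd11b1, -0.017 to 0.017 for Hspa8, -0.014 to 0.044 for Hsp90ab1 and -0.014 to 0.033 for Abcb1b. Calls gained included Mmp13 without FF replicate 2, and Pdk4, Sult1a1, Nfil3 and Junb without cKO replicate 1. The cause of these shifts was not tested.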

Other observations

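In the list of further glucocorticoid-induced genes, 8 of 23 measured genes had all cKO libraries above all FF libraries and 2 had all of them below, where 22.5% of all genes had groups that did not overlap. Besides Errfi1 and Mt1 these were named after their values were seen. Cdkn1c, a cell cycle inhibitor, had 9.31 ± 1.54 CPM in cKO and 6.79 ± 0.939 CPM in FF (SD, n = 3 each), which is 0.45 higher on the log2 scale and did not pass (edgeR adjusted p = 0.109). Angptl4, a secreted inhibitor of lipoprotein lipase, had 7.92 ± 0.546 CPM in cKO and 5.82 ± 0.839 CPM in FF (SD, n = 3 each; edgeR adjusted p = 0.0987). Glul, the glutamine synthetase gene, had 270.4 ± 7.32 CPM in cKO and 244 ± 10.6 CPM in FF (SD, n = 3 each; edgeR adjusted p = 0.0802). The log2 fold change of Glul was 0.15, and DESeq2 called it higher (adjusted p = 0.0451). Mt2, Sesn1 and Pik3r1 had log2 fold changes of 0.40, 0.077 and 0.091. Of the 2 lower genes, Pdk4, a kinase that restrains glucose oxidation, had 126 ± 3.27 CPM in cKO and 140.3 ± 4.97 CPM in FF (SD, n = 3 each; edgeR adjusted p = 0.0677), and Map3k6 fell short of the threshold at -0.34 on the log2 scale (edgeR adjusted p = 0.197).

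The mineralocorticoid receptor gene Nr3c2, whose protein also binds glucocorticoids, had 2.13 ± 0.125 CPM in cKO and 1.74 ± 0.234 CPM in FF (SD, n = 3 each). Its groups did not overlap, and the log2 fold change of 0.29 did not pass (edgeR adjusted p = 0.571).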
